A study of Mus musculus with 6 samples.

Results

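Sox1, Sox2, Sox3 and Sox21 of the SoxB group and Sox4, Sox11 and Sox12 of the SoxC group were examined in RNAseq counts of GFP-positive neural crest cells (NCCs). The 7 genes were chosen by name, as Sox family factors known for their roles in neural tissue, from the 46983 genes of the table, and all 7 were found and passed the filter on low counts. The cells were sorted from mouse embryos at E11.25. All embryos carried a Wnt1 Cre/+ transgene and the membrane reporter Rosa26 mTmG/+. The alleles of BAF155 and of BAF170 were both flox/+ in controls (n = 3) and both flox/flox in BAF155/170-deficient samples (n = 3), so the controls were themselves heterozygous for the deletions. BAF155 and BAF170, encoded by Smarcc1 and Smarcc2, are core subunits of the BAF chromatin remodelling complex. The Wnt1 promoter also drives Cre in the dorsal neural tube, so GFP marks progeny of that region as well as neural crest. In such bulk samples, fewer cells of a type and less RNA per cell cannot be told apart.

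Sox proteins bind DNA through an HMG box, and family members within a group are closely related and often overlap in function. Sox1, Sox2 and Sox3 keep neural progenitors undifferentiated, commonly together with POU-domain partners such as Pou3f2, whereas Sox21 counteracts them. The SoxC factors Sox4, Sox11 and Sox12 act later, in cells that leave the cell cycle and begin to express neuronal genes such as Tubb3, and they also serve in mesenchymal derivatives of the neural crest.

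Counts per library ran from 8191219 to 11661941 in controls and from 12633319 to 19808620 in BAF155/170-deficient NCCs. Levels are given as CPM, counts scaled to a common library size with TMM normalization, and comparisons between genes as CPM per kb of annotated exon. Smarcc1 fell by 0.71 on the log2 scale (adjusted p = 0.0676, edgeR quasi-likelihood test), and Smarcc2, with a log2 fold change of −0.11, did not pass the test (adjusted p = 0.251). Counts over a whole gene do not isolate its floxed part, so they are no full check of the deletion. Markers of the sorted population were scarce. The 64 markers of mesenchymal, neural tube, sensory, autonomic and glial cells held 0.0299% to 0.0611% of all counts in a library, and 12 macrophage markers 1.11% to 1.65%. The summed embryonic markers stood at 529 ± 129 CPM in controls and 318 ± 39.4 CPM in BAF155/170-deficient NCCs (SD, n = 3), without overlap, and the macrophage markers at 13028 ± 972 and 14823 ± 644 CPM, higher in every deficient library. None of the 7 listed epithelial markers passed the filter. The part of these shifts in the results for Sox genes was not tested.

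Under TMM normalization, levels of Sox4 and Sox12 of the SoxC group and Sox3 of the SoxB group were lower in the sorted BAF155/170-deficient samples. A gene was called where its adjusted p was 0.1 or less, its log2 fold change was 0.58 or more in either direction and its mean reached 2 CPM. By this rule Sox3, Sox4 and Sox12, 3 of the 7 genes, were called lower and none was called higher, where 4.88% of the 13961 tested genes were called lower and 0.0573% higher. Sox11 had a log2 fold change of −1.04, but its adjusted p was 0.138. Sox1, Sox2 and Sox21 overlapped between the groups. The median log2 fold change of the 7 genes was −0.90, against −0.02 over all tested genes. These calls depended on single libraries: without control replicate 1 or 2, or without deficient replicate 2 or 3, none of the 7 genes was called, whereas 4 were without control replicate 3.

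**Figure D1:**
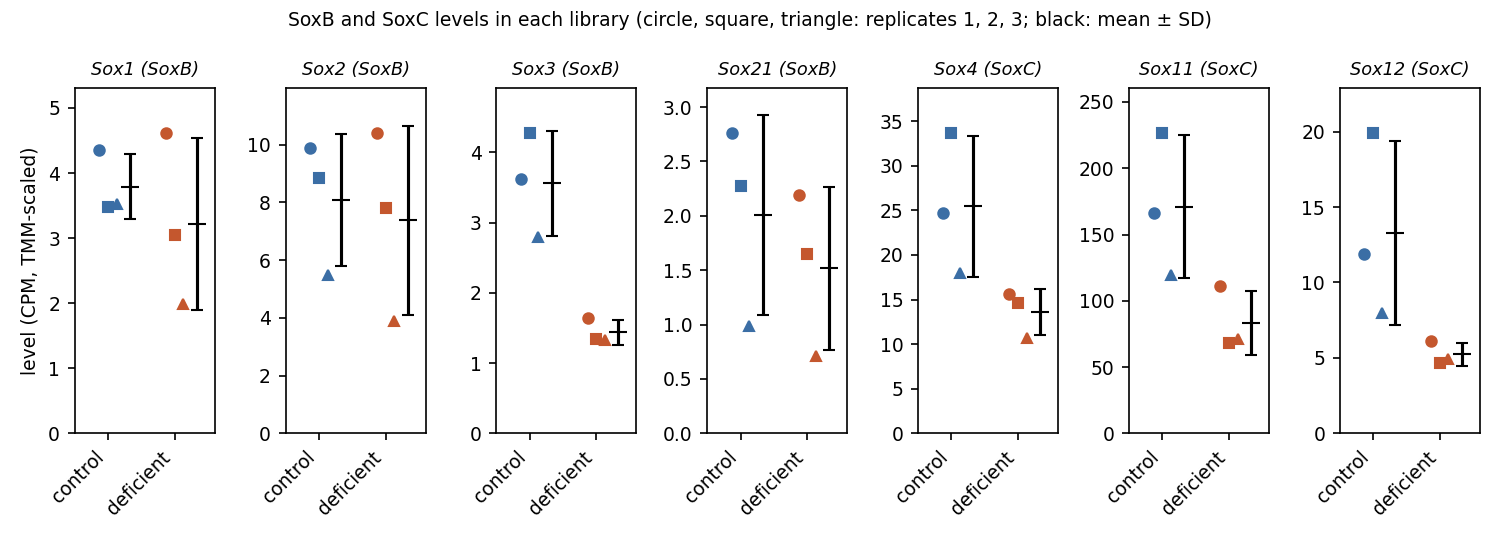
Levels of the 7 Sox genes in CPM on axes that start at 0, with each symbol a library and black bars giving the group mean ± SD. Every deficient library lies below every control library for Sox3, Sox4, Sox11 and Sox12, while the groups overlap for Sox1, Sox2 and Sox21.

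Sox11, a SoxC factor of newborn neurons, was the most abundant of the 7 genes. It was read at 167, 227 and 119 CPM in the 3 control libraries and at 111, 68.1 and 70.9 CPM in the deficient ones. All deficient libraries were below all controls, by a narrow margin between the lowest control and the highest deficient library. The log2 fold change was −1.04 ± 0.33 (SE), or 0.488-fold with a 95% interval of 0.267 to 0.893, and it missed the threshold in edgeR, whereas DESeq2 (adjusted p = 0.0403) and limma-voom (adjusted p = 0.0737) called it lower. With 1114 to 1696 counts per library, counting error of a single library was at most 3% of the value, and the coefficient of variation between libraries was 31.5% in controls and 28.8% in deficient NCCs.

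Sox4, which acts with Sox11 in the survival and differentiation of neuronal and mesenchymal precursors, was measured at 24.7, 33.7 and 17.97 CPM in controls and at 15.6, 14.6 and 10.6 CPM in deficient NCCs. The groups did not overlap. It fell by 0.90 on the log2 scale (SE 0.25, adjusted p = 0.0933, edgeR), the least of the 3 genes called. Sox12, the third SoxC gene and a weaker activator than the other two, stood at 11.9, 19.9 and 7.96 CPM in controls and at 6.11, 4.64 and 4.94 CPM in deficient NCCs. Again the groups were separate, and the controls were far more spread (coefficient of variation 46.0%) than the deficient libraries (14.8%). Sox12 fell by 1.33 on the log2 scale (SE 0.31, adjusted p = 0.0740), to 0.399-fold. For all 3 SoxC genes control replicate 2 was the highest library.

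Since each of the 3 SoxC genes read lower in every deficient library than in any control, the 250 bases upstream of their transcription starts in RefSeq (GRCm38.p6) are shown, 5′ to 3′ on the strand of the gene. Capitals mark matches on either strand to CCAAT, to the GC box GGGCGG, to the Tead motif GGAATG or to the Rbpj motif TGGGAA. The window of Sox4 is chr13:28953700-28953949, that of Sox11 chr12:27342719-27342968 and that of Sox12 chr2:152398047-152398296, all on the minus strand.
Sox4: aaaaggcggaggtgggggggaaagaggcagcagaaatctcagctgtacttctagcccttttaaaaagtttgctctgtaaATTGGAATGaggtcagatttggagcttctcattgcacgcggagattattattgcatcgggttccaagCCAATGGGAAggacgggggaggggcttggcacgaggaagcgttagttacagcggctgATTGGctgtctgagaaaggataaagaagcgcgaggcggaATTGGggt
Sox11: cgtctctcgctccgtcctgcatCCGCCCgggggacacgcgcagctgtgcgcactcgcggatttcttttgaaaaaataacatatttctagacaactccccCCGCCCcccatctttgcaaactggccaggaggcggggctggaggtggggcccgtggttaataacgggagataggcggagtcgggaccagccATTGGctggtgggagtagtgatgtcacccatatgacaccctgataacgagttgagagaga
Sox12: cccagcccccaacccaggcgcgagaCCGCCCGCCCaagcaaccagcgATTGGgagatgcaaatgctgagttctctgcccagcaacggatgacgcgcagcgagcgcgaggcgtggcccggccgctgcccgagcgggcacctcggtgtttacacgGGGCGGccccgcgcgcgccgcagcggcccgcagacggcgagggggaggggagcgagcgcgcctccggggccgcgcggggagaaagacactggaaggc
Each of the 3 windows held CCAAT, with 4 matches for Sox4 and 1 each for Sox11 and Sox12, and 33.8% of 32851 promoter windows of this length held at least 1. The GC box was found 2 times upstream of Sox11 and 3 times upstream of Sox12, where 2 matches overlap, and in 32.7% of all windows. Sox4 had no GC box but single matches to the Tead motif (12.6% of all windows) and to the Rbpj motif (21.6%), each sharing bases with a CCAAT match. Neither TATAAA, held by 12.4% of windows, nor the Sox motif AACAAT, held by 9.42%, was in any of the 3. The windows of Sox1, Sox2 and Sox21, whose groups overlapped, also lacked both. Those of Sox1 and Sox2 held CCAAT, with 1 match each, and the GC box, with 3 and 2 matches. That of Sox21 held neither CCAAT nor the GC box. GC content differed widely, at 50.8% for Sox4, 58% for Sox11 and 74.4% for Sox12, against a median of 52.4%. These matches describe the letters of the windows, and no binding was measured. Except for Sox21, the annotated starts in GENCODE differ from those of RefSeq. The last bases of the Sox4 and Sox12 windows lie within the GENCODE genes. So does most of the Sox1 window, chr8:12395269-12395518, as that gene starts at chr8:12395295 on the plus strand.

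Summed over Sox4, Sox11 and Sox12, SoxC transcripts stood at 203, 281 and 145 CPM in controls and at 133, 87.3 and 86.5 CPM in BAF155/170-deficient NCCs, a ratio of the means of 0.487. Sox11 made up 81.7% ± 0.695 of this sum in controls and 81.2% ± 2.93 in deficient NCCs, and Sox12 6.15% ± 0.851 and 5.21% ± 0.561 (SD, n = 3). Sox4 made up 12.2% ± 0.176 and 13.6% ± 2.73, and the groups overlapped for each of the 3 shares. These sums and shares are of CPM without correction for exon length. Sox11, with 8311 bases of exon against 4795 for Sox4 and 4453 for Sox12, weighs more in them for its length. Per kb of exon, Sox11 had a mean of 20.6 in a summed 28.9 CPM in controls, and 10.03 in 14.04 in deficient NCCs. The count ratio of Sox4 to Sox11 within a library, which needs no normalization, was 0.148, 0.149 and 0.151 in controls and 0.140, 0.215 and 0.15 in deficient libraries. Only deficient replicate 2 stood away from a ratio that the other 5 libraries held closely. A two-sided exact permutation test of the log2 of these ratios gave p = 0.8, where 3 against 3 libraries cannot give less than 0.1.

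Sox3, a SoxB factor encoded on the X chromosome and expressed in neural progenitors, was the SoxB gene with a call. It was read at 3.62, 4.28 and 2.79 CPM in controls and at 1.64, 1.34 and 1.33 CPM in deficient NCCs. All deficient libraries were below all controls, and the log2 fold change was −1.30 ± 0.30 (SE, adjusted p = 0.0625, edgeR), or 0.407-fold with a 95% interval of 0.258 to 0.641. These levels rest on 21 to 34 counts per library, for which counting error alone is up to 21.8% of a value.

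Sox2, the SoxB factor that maintains neural stem cells, stood at 9.89, 8.83 and 5.50 CPM in controls. In deficient NCCs it was at 10.4, 7.82 and 3.89 CPM. Both extremes belonged to the deficient group. Its log2 fold change was −0.14, with a 95% interval of −1.02 to 0.74 (adjusted p = 0.85). Sox1, which marks neural progenitors, was read at 4.36, 3.48 and 3.53 CPM in controls and at 4.62, 3.06 and 1.99 CPM in deficient NCCs. Its groups overlapped as well, with a log2 fold change of −0.26 and an interval of −0.95 to 0.44. Sox21 had 2.77, 2.27 and 0.985 CPM in controls and 2.19, 1.65 and 0.712 CPM in deficient NCCs, and its mean of 1.76 CPM was under the limit for a call. Its log2 fold change was −0.41 with an interval of −1.5 to 0.67. For Sox1, Sox2 and Sox21 the intervals include both 0 and the fold required for a call.

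**Figure D2:**
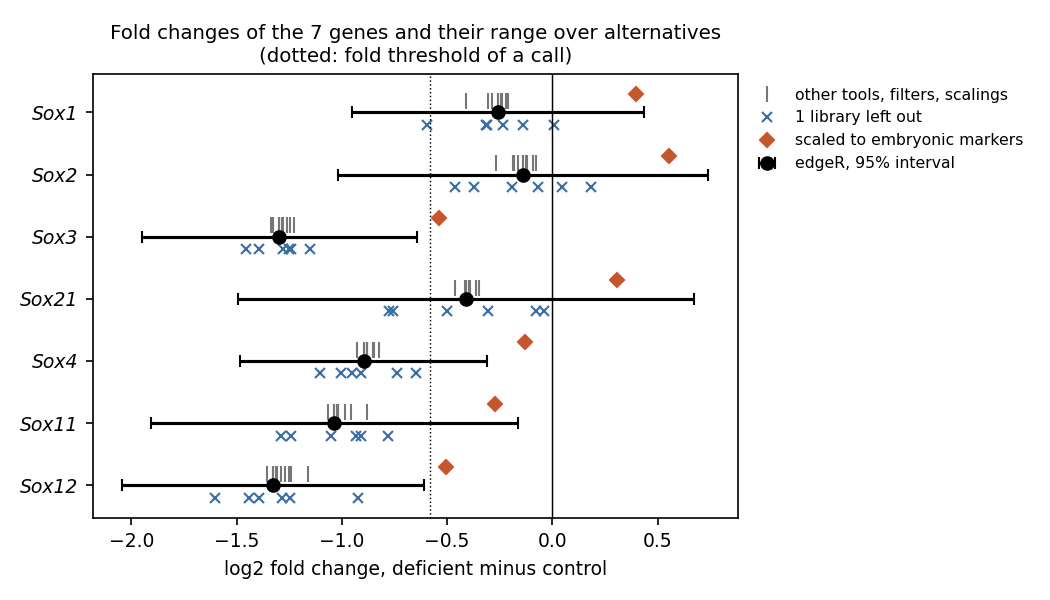
Log2 fold changes of BAF155/170-deficient against control NCCs for the 7 Sox genes, with 95% intervals from the edgeR fit and points for the alternative settings. The intervals of Sox3, Sox4, Sox11 and Sox12 lie below 0, whereas those of Sox1, Sox2 and Sox21 span it, and these 3 genes lie above 0 when libraries are scaled to the embryonic markers.

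Exact permutation tests on the log2 CPM of single genes, two-sided, gave p = 0.1 for Sox3, Sox4, Sox11 and Sox12, the smallest value that 3 against 3 libraries allow. Separation of the groups in this direction occurred in 16.4% of all tested genes. It was present in 4 of the 7 Sox genes. For Sox1 and Sox21 the same test gave 0.5, and for Sox2 0.7.

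Among the SoxB genes only Sox3 had separate groups. Summed SoxB transcripts were at 20.6, 18.9 and 12.8 CPM in controls and at 18.9, 13.9 and 7.93 CPM in deficient NCCs, with overlap and a ratio of the means of 0.778. Within this sum Sox3 accounted for 17.5%, 22.7% and 21.8% in controls and for 8.71%, 9.69% and 16.8% in deficient NCCs, lower in each deficient library. The share of Sox2 was higher in each deficient library, at 45.9% ± 2.62 in controls and 53.6% ± 3.91 in deficient NCCs (SD, n = 3). Shares of one sum are not independent, so a lower share of Sox3 raises the others. They too are of CPM without correction for exon length, and Sox1 has 4832 bases of exon against 2057 for Sox2 and 2065 for Sox3.

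Count ratios within a library were computed for all 21 pairs of the 7 genes, a measure chosen after the values were seen. The groups were separate for 3 pairs, and each of these included Sox3. Sox2 to Sox3 was 2.74, 2.06 and 1.97 in controls and 6.33, 5.82 and 2.93 in deficient NCCs. Sox1 to Sox3 was 1.21, 0.813 and 1.26 in controls and 2.81, 2.27 and 1.5 in deficient NCCs. Sox3 was already the SoxB gene with a call, so these ratios are not separate support for it. Sox3 to Sox4 went from 0.147, 0.127 and 0.155 to 0.106, 0.0921 and 0.125. The exact permutation p was 0.1 for each of the 3 pairs before any adjustment for the 21 compared, which is the smallest that 3 against 3 libraries allow.

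**Figure D3:**
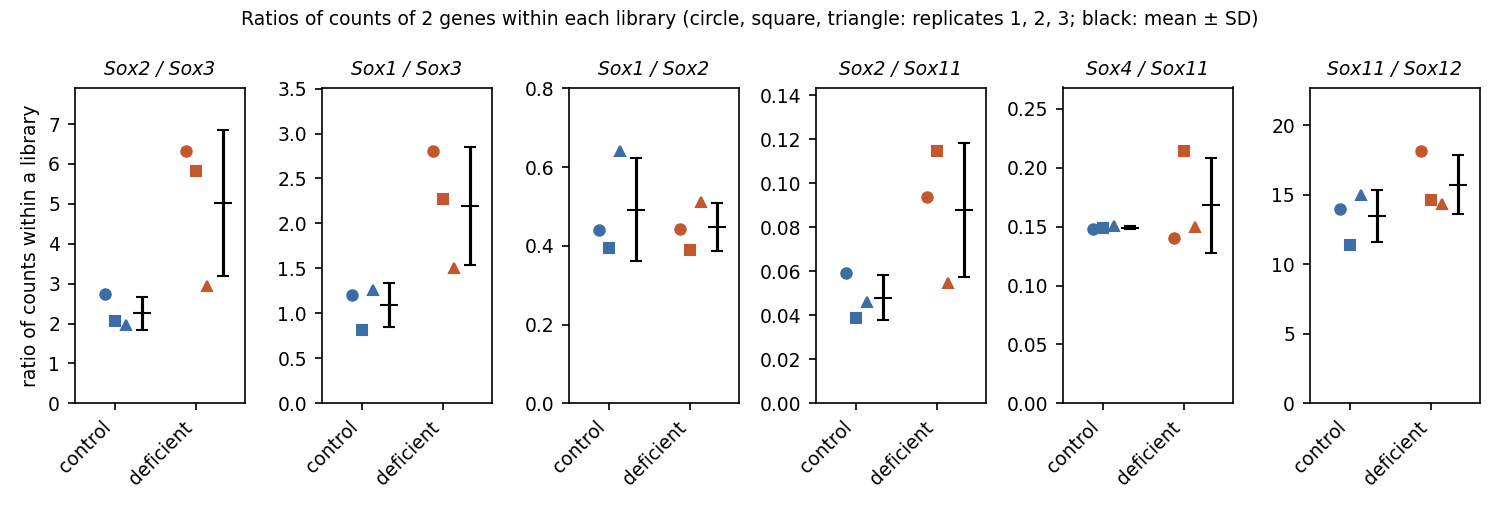
Count ratios of pairs of Sox genes within each library on axes that start at 0, with a symbol per library and black bars giving the group mean ± SD. Sox1 to Sox3 and Sox2 to Sox3 are higher in every deficient library, and Sox4 to Sox11 is near 0.15 in all libraries but deficient replicate 2.

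On the scale of CPM per kb, which allows levels of different genes to be compared, the order in controls was Sox11 (20.6 ± 6.48), Sox4 (5.31 ± 1.65), Sox2 (3.92 ± 1.11), Sox12 (2.98 ± 1.37), Sox3 (1.73 ± 0.362), Sox1 (0.784 ± 0.103) and Sox21 (0.529 ± 0.242; SD, n = 3 each). Sox11 was above Sox4, and Sox3 above Sox1, without overlap of their libraries. The other neighbours in this order overlapped when all control libraries were pooled. Within each control library, however, Sox4 was above Sox2, Sox12 above Sox3 and Sox1 above Sox21, and only Sox2 and Sox12 changed places. In BAF155/170-deficient NCCs the order was Sox11 (10.03 ± 2.89), Sox2 (3.59 ± 1.597), Sox4 (2.84 ± 0.547), Sox12 (1.17 ± 0.174), Sox3 (0.697 ± 0.0862), Sox1 (0.667 ± 0.273) and Sox21 (0.400 ± 0.197). Here Sox2 was ahead of Sox4, though their libraries overlapped, and Sox3 was no longer separate from Sox1.

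**Figure D4:**
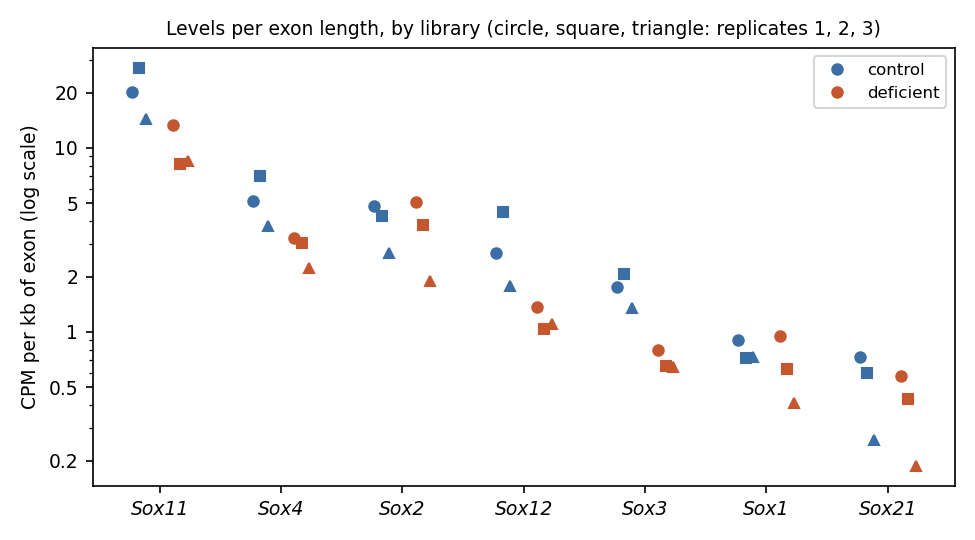
Levels of the 7 Sox genes in CPM per kb of exon on a log axis, with a point per library. Sox11 leads in both groups, and Sox3 lies close to Sox1 in deficient but not in control NCCs.

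In GENCODE M21 on GRCm38, Sox1 (ENSMUSG00000096014.1) at chr8:12395295-12400126 and Sox2 (ENSMUSG00000074637.7) at chr3:34650405-34652461 lie on the plus strand. On the minus strand are Sox3 (ENSMUSG00000045179.9) at chrX:60891366-60893430, Sox21 (ENSMUSG00000061517.8) at chr14:118233232-118237030 and Sox4 (ENSMUSG00000076431.4) at chr13:28948919-28953713 as well as Sox11 (ENSMUSG00000063632.6) at chr12:27334264-27342574 and Sox12 (ENSMUSG00000051817.8) at chr2:152393611-152398063. Of the 7 genes 6 have a single exon, while Sox12 has 2 transcripts with up to 2 exons. Of 264 tested single-exon protein-coding genes 5.3% were called lower, and their median log2 fold change was −0.15. For 4 of the 7, another gene is annotated over the locus. Sox2ot, the long transcript around Sox2 on its strand, had a log2 fold change of −0.98 without a call (adjusted p = 0.206). Sox1ot, which spans Sox1, had 4 to 16 counts per library. Gm4675, antisense to Sox21, had 1 to 6 counts, and Gm26735, antisense to Sox4, and Gm25239, a miRNA within Sox1, had 0 in all libraries. The libraries kept strand, but the strand setting of the counting is not given in the sources used here, so assignment at these loci is uncertain.

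The genes whose profile over the 6 libraries was most like that of each Sox gene were found by the root mean square difference of centred log2 CPM, over 10950 protein-coding genes, as a description only. Sox4 was nearest to Tubb2b, a beta tubulin (0.047 log2 units), 2410002F23Rik and Megf9. Sox11 was nearest to Zfp518b (0.061), Trim2 and Cdh2, and Sox12 to Sept3 (0.078), Sbk1 and Antxr1. Sox3 was closest to Gpm6b, a membrane glycoprotein of neurons and glia (0.090), Cacna2d1 and Sema6a. The nearest genes of Sox1 were Kif4, a mitotic kinesin (0.098), Tk1 and Smc4, and those of Sox2 were Kifc1 (0.121), Uvssa and Rttn. Among the 7 genes themselves, Sox2 was nearest to Sox21 (0.189), Sox11 to Sox12 (0.190) and Sox3 to Sox11 (0.192). Sox3 differed from Sox2 by 0.633. This measure holds the difference between the groups, so genes with like fold changes lie near each other by construction.

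Other genes of the network were taken from lists drawn up by role. Of 12 other Sox genes, 5 were tested, and the remaining 7 had at most 12 counts in any library. Sox9, Sox10 and Sox13 were called lower, where 4.88% of all tested genes were, and none was higher. Sox9, a SoxE factor of crest induction and chondrogenesis, fell from 7.09 ± 3.04 to 2.10 ± 0.674 CPM (SD, n = 3, log2 fold change −1.75, adjusted p = 0.0534). Sox10, which specifies glia and melanocytes, fell from 4.78 ± 2.80 to 1.177 ± 0.316 CPM (log2 fold change −1.99, adjusted p = 0.0625). Sox13, a SoxD factor, fell by 1.16 on the log2 scale. Sox6, also a SoxD factor, had the highest mean CPM of the 5 over both groups, though in controls its mean (6.48 CPM) was below that of Sox9. Its groups overlapped (log2 fold change −0.39, adjusted p = 0.403). The median over the 5 was −1.16. None of these Sox genes was called without control replicate 1 or 2 or without deficient replicate 3, and only 1 without deficient replicate 2.

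Of 22 listed partners of the SoxB factors and other neural progenitor genes, 20 were tested, 3 were called lower and none higher. By comparison, 4.88% of all tested genes were called lower. The median log2 fold change of the list was −0.54, against −0.02 over all tested genes. Pou5f1 had 0 counts in all libraries. Of the 22, 4 are also among the embryonic markers, so this list and those markers are not separate measurements. Cdh2, the N-cadherin of neuroepithelium, fell from 23.8 ± 6.5 to 12.1 ± 3.27 CPM (adjusted p = 0.0862). Meis1, a TALE homeodomain factor, fell by 1.10 on the log2 scale (adjusted p = 0.0653). Nes, the intermediate filament of neural progenitors, fell by 0.61 (adjusted p = 0.0965), although its groups overlapped. Its call was kept in 6 of 17 alternatives and was lost, among others, under limma-voom (log2 fold change −0.58, just short of the threshold), library totals (−0.54) and no filter (−0.56). The most abundant genes of the list, Vim with a mean of 2638 CPM and Pou3f1 with 67.3 CPM, had log2 fold changes of 0.19 and 0.10 without a call. Summed over the list, levels were 2819 ± 74.7 CPM in controls and 3073 ± 56.8 CPM in deficient NCCs (SD, n = 3), most of it Vim, so the sum and the median differ in direction. None of the list was called without control replicate 1 or 2 or without deficient replicate 2 or 3, whereas 6 were without control replicate 3 and 5 without deficient replicate 1. Vim is an intermediate filament gene that many non-neural cells, macrophages among them, also express.

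Among targets of the SoxC factors and genes of neuronal differentiation, all 22 listed were tested, 14 were called lower and none higher. The share called lower over all tested genes was 4.88%. The median log2 fold change over the list was −1.32. Dcx, a microtubule protein of migrating neurons, stood at 27.8, 56.9 and 26.4 CPM in controls and at 11.4, 7.64 and 13.5 CPM in deficient NCCs (log2 fold change −1.75, adjusted p = 0.0919). Its call was lost in 10 of 17 alternatives, among them library totals (adjusted p = 0.112) and no filter on low counts (adjusted p = 0.156). Map2, a dendritic microtubule protein, fell from 49.9 ± 21.02 to 14.99 ± 3.92 CPM (adjusted p = 0.0848), a call lost in 7 of the 17. Control replicate 2, the highest library for the SoxC genes, was the highest for both. Nefm, the medium neurofilament chain, fell by 1.35 on the log2 scale, Ncam1, a neural cell adhesion molecule, by 1.21, Stmn2, a growth cone tubulin regulator, by 1.66, and Prox1, a homeodomain factor of early neurons, by 1.40. Of the 22, 6 are also among the embryonic markers, so the list and those markers are not separate measurements. Without control replicate 1 or deficient replicate 3 none of the 22 was called, 4 were without control replicate 2, and 1 without deficient replicate 2.

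**Figure D5:**
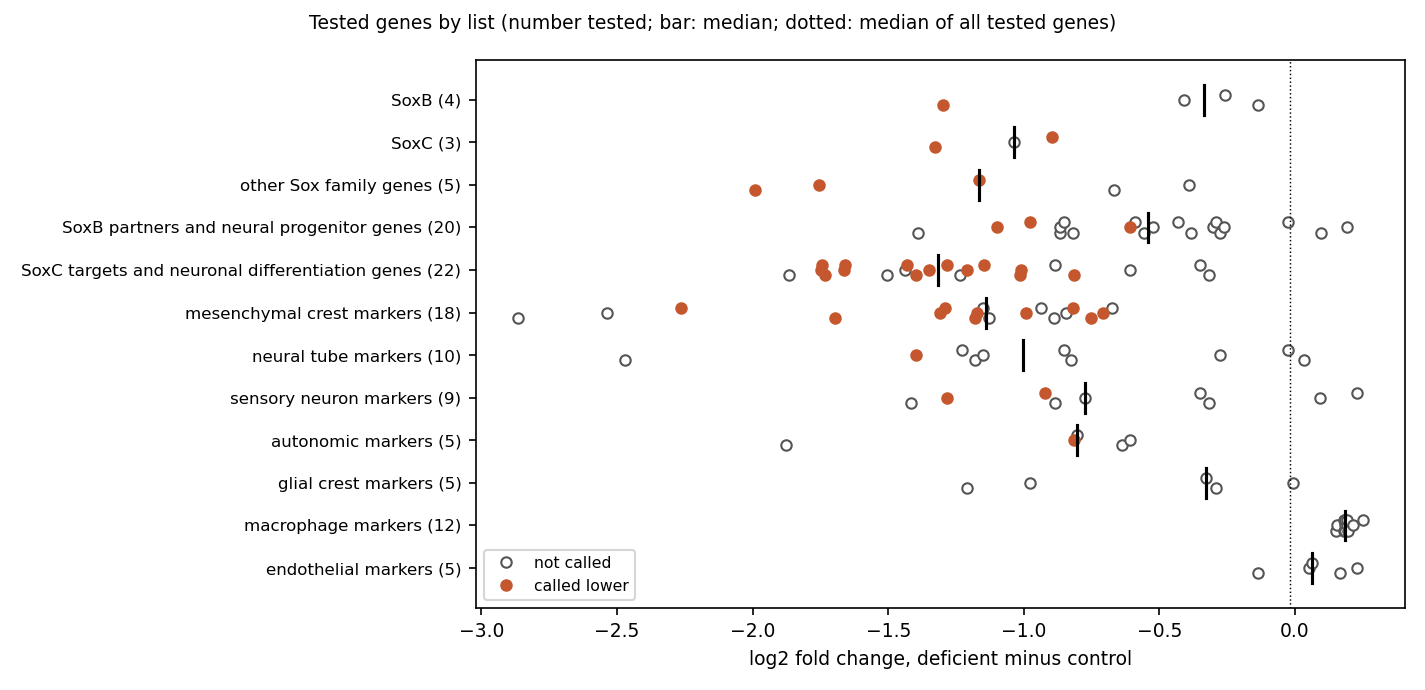
Log2 fold changes of the tested genes of each list, with a point per gene, a bar at the list median and a dotted line at the median of all tested genes. The SoxC genes, the other Sox genes and the neuronal differentiation genes lie mostly below 0, and the macrophage markers above it, under TMM normalization.

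Markers of other cell types in the sorted samples moved beside these results. Of the mesenchymal crest markers 10 of 18 tested were called lower (median log2 fold change −1.14), of the neural tube markers 1 of 10 (−1.002), of the sensory neuron markers 2 of 9 (−0.77), of the autonomic markers 1 of 5 (−0.80) and of the glial crest markers 0 of 5 (−0.33). Over all tested genes 4.88% were called lower, with a median of −0.02. Among the sensory neuron markers, Runx1, the most abundant at a mean of 29.9 CPM, and Runx3 (8.57 CPM) went the other way. Their log2 fold changes were 0.09 and 0.23 without a call, and both count among the embryonic markers and in the scaling to them. The 12 macrophage markers had a median of 0.19 with none called. Erythroid markers had a median of −0.49 over 9 genes, neutrophil markers of 0.51 over 3 and endothelial markers of 0.06 over 5, with none called.

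When libraries were scaled to the embryonic markers instead of by TMM, the median of all tested genes moved from −0.02 to 0.70, and none of the 7 Sox genes was called, nor any gene of the 3 lists. On that scale the log2 fold changes were −0.54 for Sox3, −0.51 for Sox12, −0.27 for Sox11 and −0.13 for Sox4, and Sox1 (0.40), Sox2 (0.55) and Sox21 (0.31) turned positive. Such a scaling moves all genes by a similar amount, so the place of a gene relative to the median of all genes is no further test. Under TMM the median log2 fold change of the SoxC genes was −1.04 and that of the 47 tested embryonic markers −0.89.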

How the data were processed

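RNAseq was carried out on GFP-positive NCCs of 3 control and 3 BAF155/170-deficient samples. Per the study's methods and processing notes, the authors trimmed paired-end reads of strand-specific poly(A) libraries with cutadapt 1.18 after FastQC 0.11.7, mapped them with STAR to GRCm38, and counted reads over genes using featureCounts. The annotation release, strand setting and treatment of reads mapping to several places are not given in the sources used here, and such choices could shift reads between overlapping or closely related genes. The authors deposited counts per gene, which are whole numbers without normalization and range from 8191219 to 19808620 per library. Counts of a library carry counting error, and the spread between libraries adds to it, with a common biological coefficient of variation of 12.8%. The methods give 3 embryos per group, and nothing in the labels ties a library to an embryo, so p-values measure the spread between these libraries, which may be partly technical.

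Of 46983 genes, 46488 were named from GENCODE M21. Counts were analysed with edgeR 4.0.16 in R 4.3.3: low genes were removed with filterByExpr (minimum count 10, minimum total 15), and a quasi-likelihood model with robust dispersion and TMM normalization was fitted to the 6 libraries, with condition alone as its term. Adjusted p-values are Benjamini-Hochberg values over all 13961 tested genes, and the thresholds for calls follow the study's methods. CPM on a log2 scale used a prior count of 2. Exact permutation tests were two-sided and took the difference of the group means of log2 values. Alternatives were DESeq2 1.42.0, limma-voom (limma 3.58.1), other scalings and filters, a replicate block, a correction for exon length, other thresholds and leaving out each library. Tables and plots were made with Python 3.11.15, numpy 2.4.6, pandas 2.3.3, scipy 1.17.1 and matplotlib 3.10.9. Promoter windows came from RefSeq, which gave one for 6 of the 7 genes, not for Sox3.

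The 7 genes, the lists and the tests were chosen with earlier results of these data known. Beside the 7 genes, the text names from each of 3 lists up to 4 called genes with the lowest adjusted p in each direction and the 2 most abundant tested genes, the 3 protein-coding genes most like each Sox gene with a mean of at least 2 CPM, the targeted genes, and genes annotated over a Sox gene. Pou3f2, Tubb3 and Pou5f1 are named as background or as a count.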

Additional observations from a re-analysis of the deposited data

How the results depend on the processing

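Under the 17 alternatives, Sox3 was called lower in 11, Sox12 in 11, Sox4 in 10 and Sox11 in 3, and all 4 kept a negative log2 fold change in each. Sox1, Sox2 and Sox21 were called in none, and Sox21 had 16 alternatives because the filter at 2 CPM removed it. The number of the 7 genes called lower was 3 under edgeR, 4 under DESeq2 and limma-voom, 2 with a filter at 2 CPM, 0 when scaled to the embryonic markers and 0 at an adjusted p of at most 0.05, and it ran from 0 to 4 when single libraries were left out. Where 0 were called in edgeR, 4 of the 7 genes had an unadjusted p under 0.05 at the stricter threshold and without control replicate 1, 3 without control replicate 2, deficient replicate 2 or deficient replicate 3, and 0 when scaled to the embryonic markers. Over all tested genes, 681 lower and 8 higher calls became 5 and 59 when scaled to the embryonic markers, 1082 and 583 by adjusted p alone, and 94 and 0 at an adjusted p of at most 0.05. Higher calls were 15 under DESeq2, 33 without a filter and 2 with the filter at 2 CPM. Leaving out single libraries gave 0 to 1219 lower and 0 to 45 higher calls, and the 0 lower calls arose without control replicate 1, with 2547 genes at an unadjusted p under 0.05. The cause was not tested. The ratio of the SoxB sums ran from 0.625 to 0.939 and that of the SoxC sums from 0.414 to 0.586 when single libraries were left out, an alternative chosen after seeing the data.

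Several values changed sign. When scaled to the embryonic markers, log2 fold changes became 0.40 for Sox1, 0.55 for Sox2, 0.31 for Sox21, 0.28 for Sox6, 0.15 for Nes, 0.47 for Kif4, 0.31 for Tk1, 0.33 for Smc4, 0.49 for Kifc1, 0.46 for Uvssa, 0.33 for Rttn, 0.048 for Smarcc1 and 0.61 for Smarcc2, and the median of the SoxB partner list became 0.21. When single libraries were left out, they ran from −0.60 to 0.0062 for Sox1, −0.46 to 0.18 for Sox2, −0.44 to 0.054 for Kif4, −0.46 to 0.058 for Kifc1 and −0.56 to 0.045 for Uvssa, with the positive ends without deficient replicate 3, and Sox2 was at 0.048 without control replicate 1.

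With a replicate block, 3 of the 7 genes were called lower, as without it, over all genes 1143 were lower and 21 higher, and 7 rather than 3 of the SoxB partner list were lower. Under the block the calls of Dcx (adjusted p = 0.215) and Map2 (adjusted p = 0.153) were lost, while 14 of the SoxC list were lower as without it. Deviations of same-numbered libraries from their group means correlated at 0.041, −0.067 and 0.38. Those of differently numbered libraries ran from −0.41 to 0.37. With 3 libraries per group these values cannot decide whether the numbers pair the samples, and the labels state no pairing.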
